A study of Mus musculus with 8 samples.

Results

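Fatty acid oxidation was examined in 3T3-L1 adipocytes through 33 genes of carnitine transfer and of mitochondrial and peroxisomal beta oxidation. The genes were taken by name from the 43629 genes of the count table, all 33 were found, and all 33 passed the filter on low counts. By their known location 19 encode mitochondrial proteins, 9 peroxisomal proteins, 4 proteins found in both organelles and 1, Acot1, a cytosolic enzyme. 3T3-L1 is a mouse fibroblast line that becomes adipocyte-like in culture, here under insulin, dexamethasone, isobutylmethylxanthine and rosiglitazone. Rosiglitazone is an agonist of PPARγ that all 4 groups received. By the paper's methods these agents were taken out of the medium before day 8. At day 8 of differentiation the cells were left untreated, or were exposed for 24 h to 2 µM A66 (an inhibitor of the PI3K catalytic subunit p110α), to 0.5 mM palmitate bound to BSA, or to palmitate and A66 at these same doses. The labels call the control cells untreated, whereas the paper's methods give them DMSO, the vehicle of A66, and name a lower dose of A66 than the labels. Whether cells without palmitate received BSA is not given in the sources used here. Each group held 2 cultures with 1 poly(A) RNA library each, and all come from a single cell line.

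Fatty acids enter mitochondria as acylcarnitines. A carnitine palmitoyltransferase of the outer membrane makes the acylcarnitine, a carrier moves it across the inner membrane, and a second transferase of the inner membrane returns the acyl group to coenzyme A. Each turn of the spiral then dehydrogenates, hydrates, dehydrogenates again and cleaves the chain, and electron transfer flavoprotein carries the electrons of the first step to the respiratory chain. Peroxisomes import very long and branched acyl-CoAs through ABC transporters, begin their spiral with an oxidase that makes hydrogen peroxide, and pass shortened chains on as carnitine esters. White adipocytes store far more fat than they burn, and many of these genes are known targets of the PPAR receptors, which bind fatty acids.

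The libraries held between 42247091 and 57529803 counts, so that 3 counts, the smallest amount taken as detected, corresponded to 0.0519 to 0.0706 CPM (counts scaled by TMM and by the library total to a common library size). The 33 genes together took 0.424% to 0.480% of all counts of a library. Replicates differed by more than counting noise in every group, the chi-square per gene averaging 6.15 to 8.99. Adipocyte markers were abundant, 12 genes summing to between 17016 and 20367 CPM. Adgre1 of macrophages, Ttr of hepatocytes and Ckm of muscle had no counts in any library, whereas other markers of these types had some. In untreated cells Cd68 of macrophages had 2.57 and 3.42 CPM, Acta1 of muscle 0.80 and 0.85, and Apoa1 of hepatocytes 0.118 and 0.129. Markers of preadipocytes and fibroblasts summed to between 4351 and 5243 CPM, and Dlk1, a preadipocyte marker, had no counts. In bulk RNA a smaller number of cells of a type and less RNA per cell cannot be told apart. Of 7 genes known to be induced by FOXO factors when PI3K signalling is low, 0 were called with A66 (1 had an unadjusted p under 0.05 in edgeR, and DESeq2 called 0), and when A66 was added to palmitate 1 of the 7 was called, Klf15, which was lower (-0.19, adjusted p = 0.0278, edgeR). These genes therefore did not check the treatment labels, on which every direction below depends.

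The genes that carry the pathway were not evenly expressed. Levels of different genes are compared as CPM per kb of transcript. In untreated cells the highest level was that of Etfa, the α subunit of electron transfer flavoprotein, at 171 and 182 CPM per kb. Its partner Etfb stood at 166 and 184 CPM per kb, and Scp2, which holds the peroxisomal thiolase for branched chains together with a sterol carrier, at 167 and 173. Acadm, the medium-chain acyl-CoA dehydrogenase, followed at 166 and 163, and Ech1, an isomerase for dienoyl-CoAs, at 142 and 146. These first 3 genes overlapped in the untreated libraries, whereas Scp2 and Acadm, and Acadm and Ech1, did not overlap as neighbours.

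The carnitine gate was low on this scale. Cpt1a, which encodes the outer-membrane carnitine palmitoyltransferase of liver type and catalyses the step that malonyl-CoA inhibits, stood at 13.9 and 14.4 CPM per kb in untreated cells. Slc25a20, the carnitine-acylcarnitine carrier, stood at 12.9 and 13.2, the lowest of the 30 genes with a mean of at least 10 CPM. Cpt2, the inner-membrane transferase, was higher, at 43.2 and 43.0. Cpt1b, the muscle isoform of the gate, was at the edge of detection in every group, with 15 and 8 raw counts in untreated cells. Its mean level there was 0.087 CPM per kb. Its counts are uncertain, since 91.1% of the 100-base windows of the Cpt1b transcript also lie in Gm44502, an overlapping gene model on the same strand, and shared reads may not have been counted for Cpt1b.

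**Figure D1:**
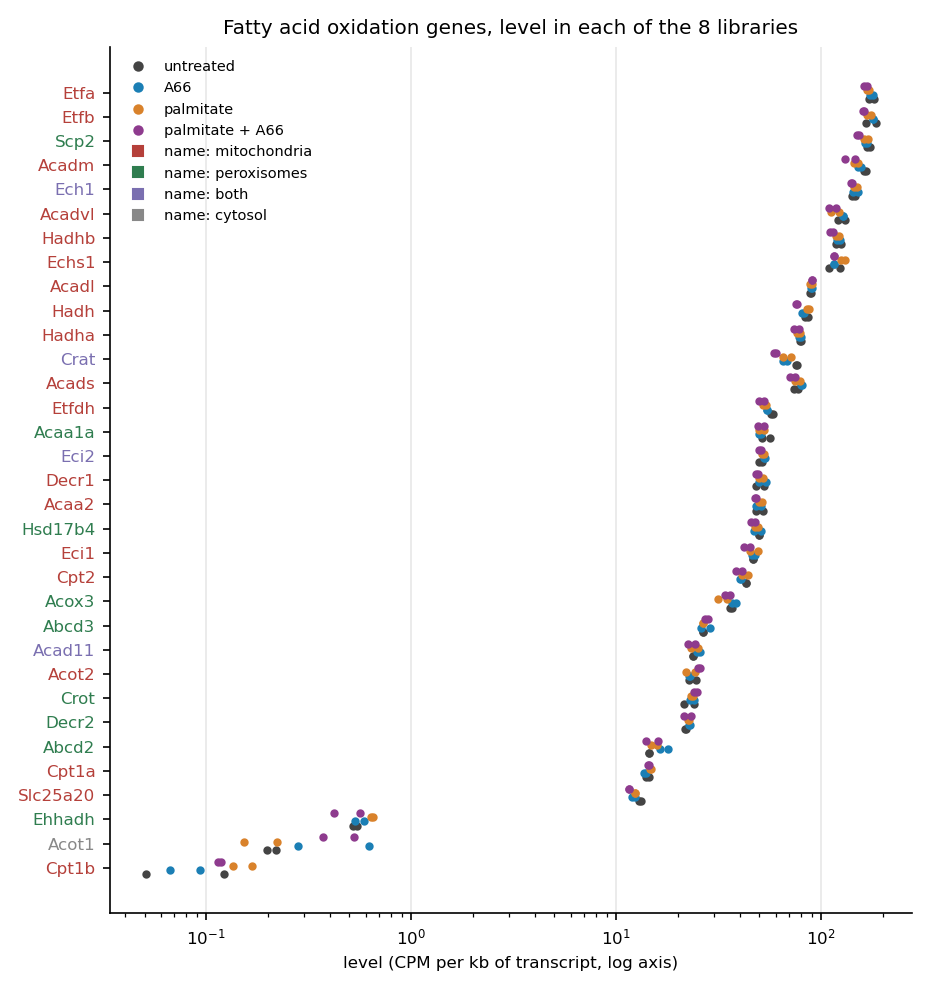
Level of each of the 33 genes in CPM per kb of transcript (log axis), 1 point per library, coloured by group, with gene names coloured by the organelle of the protein. The 8 points of most genes lie close together, 30 genes lie above 10 CPM per kb, and Ehhadh, Acot1 and Cpt1b lie below 1 CPM per kb.

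The 4 acyl-CoA dehydrogenases, which start the mitochondrial spiral on chains of decreasing length, were all well expressed. In untreated cells the mean level was 125 CPM per kb for Acadvl (very long chains), 89.2 for Acadl (long chains), 164 for Acadm (medium chains) and 75.5 for Acads (short chains). Acadl was the steadiest, with a highest library only 1.03 times its lowest over all 8 libraries, and Crat, the carnitine acetyltransferase, varied more, by 1.29 times. Exons of Acadvl overlap those of Dvl2, which is read from the other strand. Whether the authors counted by strand is not given in the sources used here.

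Hadha and Hadhb encode the α and β subunits of the mitochondrial trifunctional protein, the complex that hydrates, dehydrogenates and cleaves long chains. The 2 genes start back to back on chromosome 5 of GRCm38, Hadha (ENSMUSG00000025745) on the minus strand from 30118304 to 30155162 and Hadhb (ENSMUSG00000059447) on the plus strand from 30155248 to 30184593, with 85 bases between them. The stretch is shown because a single short region lies before both subunit genes, read on the plus strand of GRCm38.p6 at chr5:30155143-30155267 (RefSeq genome). The bases in capitals lie between the starts annotated by GENCODE M21, from which the RefSeq starts of both genes differ.
Hadha-Hadhb: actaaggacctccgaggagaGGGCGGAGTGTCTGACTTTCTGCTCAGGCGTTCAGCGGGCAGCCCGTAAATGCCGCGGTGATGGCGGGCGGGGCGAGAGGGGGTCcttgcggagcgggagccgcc
The ratio of Hadha to Hadhb per kb lay between 0.634 and 0.679 in the 8 libraries, and the ratio of Etfa to Etfb, also subunits of a single complex, between 0.968 and 1.04. The Hadhb level is uncertain, because 52.8% of its 100-base windows recur in the gene models Gm13910 and Gm9108, and that of Etfb likewise, because 65.2% of its windows recur in Gm45233. For Scp2 the share is 32.2%, in the pseudogene Scp2-ps2.

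Acot1 and Acot2 are neighbouring genes for acyl-CoA thioesterases, which release free fatty acid from coenzyme A, Acot1 in the cytosol and Acot2 in mitochondria. They lie in tandem on the plus strand of chromosome 12 of GRCm38, Acot2 from 83987861 to 83993873 and Acot1 from 84009490 to 84018371, and their transcripts are 80.7% identical over 2046 aligned bases. Per kb, Acot2 exceeded Acot1 by 36.4 to 144 times over the 8 libraries. The 200 bases before each RefSeq start on GRCm38.p6 are shown because these similar transcripts came from upstream sequences that were less alike (56.8% identity over the 271 aligned bases of the longer promoter windows), for Acot1 chr12:84009302-84009501 and for Acot2 chr12:83987661-83987860, both on the plus strand.
Acot1: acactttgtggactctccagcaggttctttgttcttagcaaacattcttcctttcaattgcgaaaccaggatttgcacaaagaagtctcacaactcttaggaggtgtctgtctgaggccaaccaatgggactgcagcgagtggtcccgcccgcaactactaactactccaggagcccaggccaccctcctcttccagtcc
Acot2: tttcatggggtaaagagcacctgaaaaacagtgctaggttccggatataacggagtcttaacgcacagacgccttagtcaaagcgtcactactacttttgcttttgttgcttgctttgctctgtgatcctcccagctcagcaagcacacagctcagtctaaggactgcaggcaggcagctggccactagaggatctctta
Of the 100-base windows of Acot1, 21.9% recur in other Acot genes, and 17.1% of those of Acot2 recur in Acot1, so the small counts of Acot1 are uncertain.

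The first question was whether A66 alone changed these genes. It changed 2 of the 33 (6.06%), against 1.84% of the 14158 genes tested, called at an adjusted p under 0.05 in edgeR. Crat (ENSMUSG00000026853, chromosome 2 from 30400471 to 30415813, minus strand), which moves acetyl and other short acyl groups between coenzyme A and carnitine in mitochondria and peroxisomes, had 321 and 319 CPM in untreated cells and 289 and 276 with A66. The groups did not overlap, and Crat fell by 0.18 on the log2 scale (standard error 0.040, adjusted p = 0.0186, edgeR), with a 95% interval from -16.4% to -6.32%. Abcd2 (ENSMUSG00000055782, chromosome 15 from 91145871 to 91191799, minus strand), a peroxisomal transporter of very long-chain acyl-CoAs, had 79.8 and 79.9 CPM in untreated cells and 98.8 and 90.5 with A66. It rose by 18.9% (log2 fold change 0.25, standard error 0.047, adjusted p = 0.00452, edgeR), and again the groups did not overlap. These calls rest on few libraries. Where a library is left out, its group keeps a single sample, which is assumed to vary like the other groups, and the test has fewer libraries. Without A66 replicate 1 neither passed, although the estimate for Crat was larger (Crat -0.21, adjusted p = 0.0771, and Abcd2 0.18, adjusted p = 0.234, edgeR), and without A66 replicate 2 Crat did not pass (-0.14, adjusted p = 0.389, edgeR).

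None of the remaining 31 genes passed with A66. Acot1, at 19 and 27 raw counts in untreated cells and 73 and 30 with A66, was estimated at 1.12 on the log2 scale with a standard error of 0.41 (adjusted p = 0.211, edgeR), and replicate 1 of A66 held most of the difference. Of the others, 30 in number, the log2 fold changes lay between -0.099 for Slc25a20 and 0.093 for Acad11, another acyl-CoA dehydrogenase. The median over the 33 genes was 0.0026, beside -0.0011 over all genes tested, and 15 of the 33 (45.5%) were below 0, beside 50.4% of all genes.

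The second question was whether palmitate, itself a substrate of the pathway, changed its genes, and in particular 10 grouped here as entry genes. These are the genes of carnitine transfer, the peroxisomal ABC transporters and the thioesterases, and not all of them admit fatty acids to the pathway. No member passed the test in edgeR (0 of 33, against 1.17% of the 14587 genes tested), and DESeq2 called 0 of the 30 for which it gave an adjusted p. An unadjusted p under 0.05 was found for 6 of the 33, beside 1753 of the 14587 genes. Without the filter on low counts edgeR called 2, Acadm and Crat, of which Crat is among the 10 (1.71% of all genes were called in that fit), and with single libraries left out it called at most 1, Echs1 without untreated replicate 2 (1.14%) and Crat without palmitate replicate 2 (1.64%). Cpt1a had 60.2 and 62.2 CPM in untreated cells and 64.2 and 62.8 with palmitate. The palmitate libraries were thus slightly above the untreated ones, by 3.75%, with a 95% interval from -2.87% to 10.8% (log2 fold change 0.053, adjusted p = 0.710, edgeR). Cpt2 had 102 and 102 CPM in untreated cells and 97.4 and 105 with palmitate, and these overlapped. Slc25a20 had 23.0 and 23.6 CPM in untreated cells and 22.1 and 21.9 with palmitate, with an interval from -14.1% to 4.05%.

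The peroxisomal side of the entry was as close. Crot, the carnitine octanoyltransferase that exports medium-length chains from peroxisomes, had 64.1 and 72.2 CPM in untreated cells and 69.2 and 70.8 with palmitate. Abcd2 had 81.6 and 87.3 CPM with palmitate, above its untreated values, but did not pass (log2 fold change 0.080, adjusted p = 0.619, edgeR). Abcd3, another peroxisomal ABC transporter, had 92.1 and 92.8 CPM in untreated cells and 92.2 and 92.9 with palmitate. Of the thioesterases, Acot2 had 49.9 and 54.2 CPM against 48.1 and 53.4 with palmitate, and Acot1 had 20 and 27 raw counts with palmitate, as few as in untreated cells. Crat came nearest to the threshold of the 10, at 276 and 302 CPM with palmitate (log2 fold change -0.15, adjusted p = 0.126, edgeR), and both of these values lay below both untreated ones. Its adjusted p was 0.0487 in edgeR without the filter on low counts.

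**Figure D2:**
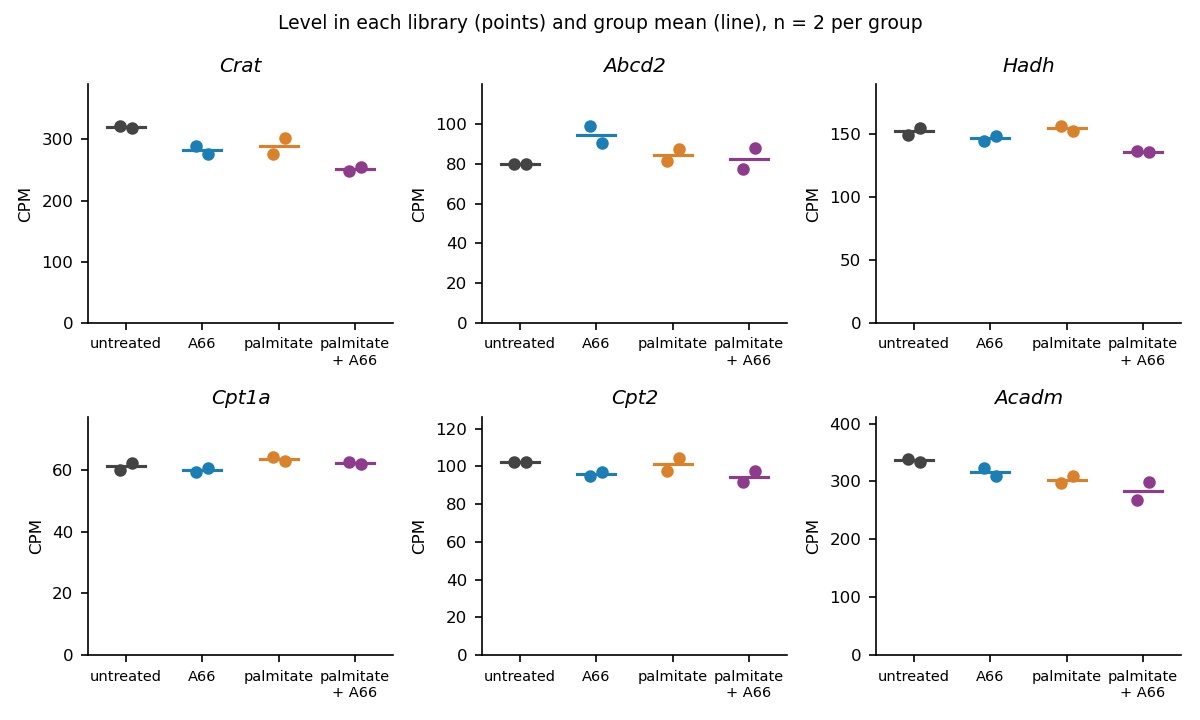
CPM of 6 genes (axis from 0) in each library, with points for single libraries and lines for the means of 2 libraries per group. Crat is highest in untreated cells and lowest with palmitate plus A66, the A66 libraries of Abcd2 stand above all others, Hadh is lowest with palmitate plus A66, and the Cpt1a points lie between 59.3 and 64.2 CPM in every group.

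With A66, the entry genes other than Crat and Abcd2 had the following values. Cpt1a had 59.3 and 60.7 CPM with A66 and 62.7 and 62.1 with A66 and palmitate together. Cpt2 had 95.1 and 96.9 CPM with A66, both below the untreated values (log2 fold change -0.089, interval from -11.5% to -0.073%, adjusted p = 0.383, edgeR), and 91.5 and 97.6 with both agents. Slc25a20 had 22.1 and 21.3 CPM with A66 and 20.6 and 20.6 with both, the latter the lowest of its 8 values. On the peroxisomal side Crot had 72.2 and 68.6 CPM with A66 and 72.1 and 74.4 with both agents, and Abcd3 had 99.7 and 90.9 and then 94.5 and 98.0. Cpt1b had 14 and 9 raw counts with A66 and 16 and 17 with both agents, within the range of the other groups. Acot2 had 49.6 and 50.3 CPM with A66 and 56.5 and 55.4 with both agents. Acot1 had 73 and 30 raw counts with A66 and 58 and 42 with both, each above all 4 libraries without A66. Apart from Crat and Abcd2, none of the 10 entry genes passed in any of the 5 tests.

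Of the 6 genes with an unadjusted p under 0.05 with palmitate, 5 were lower (Crat, Acadm, Etfdh, Acox3 and Acadvl) and 1, Echs1, was higher. Acadm had 339 and 333 CPM in untreated cells and 297 and 309 with palmitate (log2 fold change -0.15, adjusted p = 0.138, edgeR). Echs1, the short-chain enoyl-CoA hydratase, had 170 and 192 CPM in untreated cells and 203 and 194 with palmitate (log2 fold change 0.13, adjusted p = 0.218, edgeR). Neither gene overlapped between the groups, and neither passed in all 8 libraries with the filter on low counts. Etfdh, which passes electrons from the flavoprotein to ubiquinone, and Acox3, a peroxisomal oxidase of branched chains, had log2 fold changes of -0.11 and -0.12. Acadvl, the very long-chain acyl-CoA dehydrogenase, had 261 and 282 CPM in untreated cells and 241 and 264 with palmitate, which overlapped (log2 fold change -0.10, adjusted p = 0.407, edgeR). Cpt1b had 28 and 21 raw counts with palmitate against 15 and 8 in untreated cells (log2 fold change 0.85, interval from -0.20 to 1.91, adjusted p = 0.543, edgeR). At such counts the interval was wide, and the difference was not called. Ehhadh, the bifunctional enzyme of the inducible peroxisomal spiral, had 110 and 104 raw counts with palmitate against 69 and 84 (log2 fold change 0.27, adjusted p = 0.679, edgeR).

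The intervals say how large a change the data leave room for. An interval is called narrow where it lies wholly within a 1.5-fold change in either direction. With palmitate 30 of the 33 genes had a narrow interval, against 74.6% of all genes tested, and the other 3 were the low genes Cpt1b, Acot1 and Ehhadh. With A66 31 of 33 were narrow, against 76.2% of all genes, the exceptions being Cpt1b and Acot1. In the comparisons of palmitate plus A66 with palmitate and with A66, 30 of 33 were narrow in each, against 74.2% and 74.1%. These shares follow the level of the genes. Among genes with a mean of at least 10 CPM, 30 of 30 members and 8936 of all 8956 genes were narrow with palmitate. For these 30 genes the intervals with palmitate reached from -15.9% at the lowest (Acadm) to 17.3% at the highest (Echs1).

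**Figure D3:**
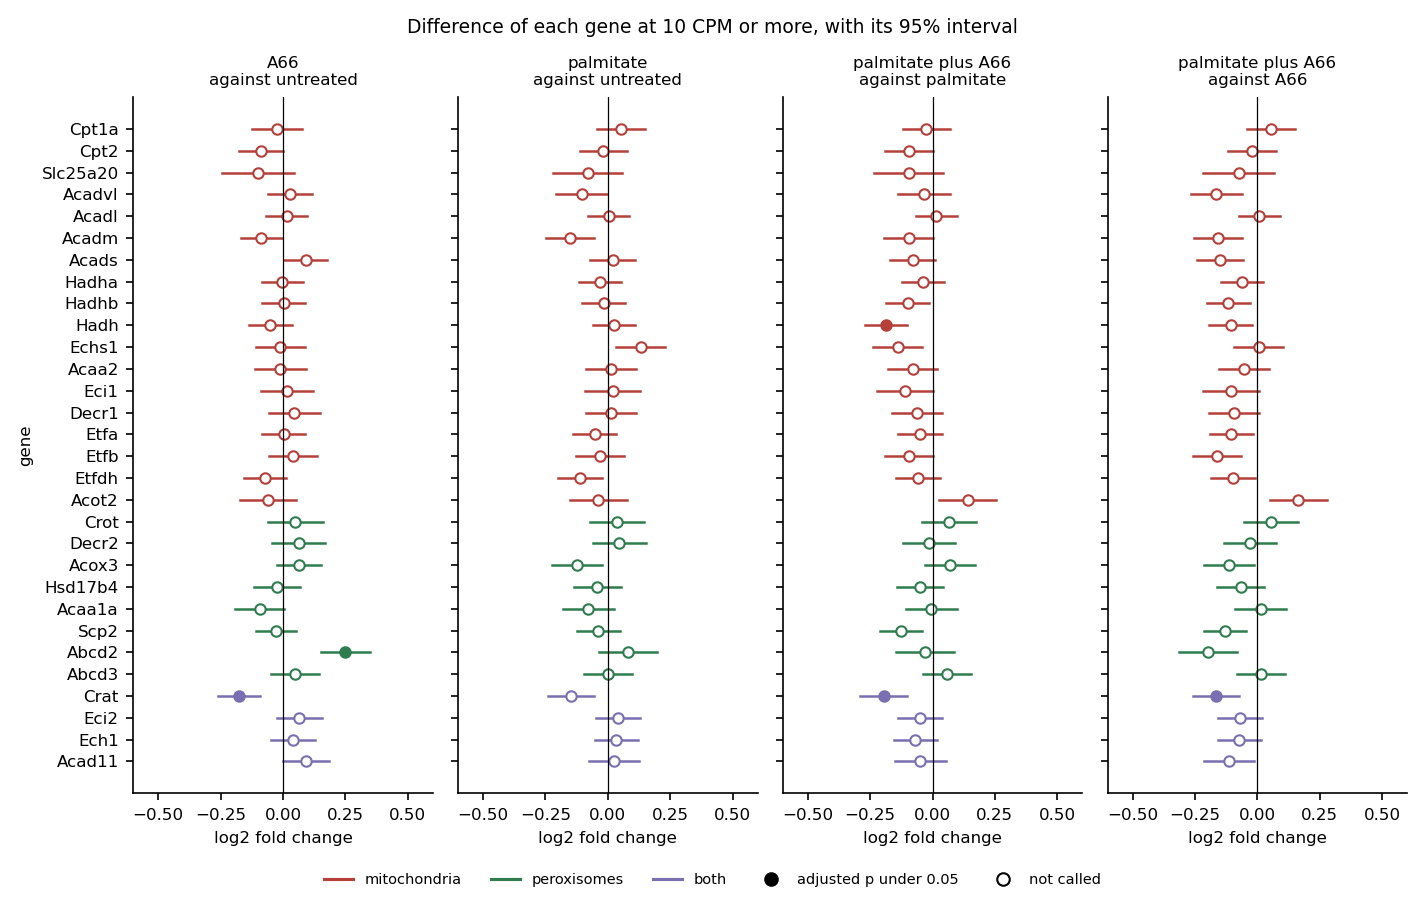
Log2 fold change (points) and 95% interval (lines) of the 30 genes with a mean of at least 10 CPM in 4 comparisons, coloured by organelle, with filled points for an adjusted p under 0.05 in edgeR. Filled points are Crat and Abcd2 with A66, Hadh and Crat with palmitate plus A66 against palmitate, and Crat with palmitate plus A66 against A66. No point is filled with palmitate alone.

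The third question was what A66 did in cells that also received palmitate. Here 2 of the 33 genes passed (6.06%), against 2.81% of the genes tested, and both were lower. DESeq2 called 3 (3.46% of all genes), and edgeR without the filter on low counts called 4 (2.82%). Hadh (ENSMUSG00000027984), the short-chain hydroxyacyl-CoA dehydrogenase of the mitochondrial matrix, had 157 and 153 CPM in the palmitate libraries and 137 and 136 once A66 was added, and the groups did not overlap. It fell by 0.19 on the log2 scale (standard error 0.041, adjusted p = 0.0121, edgeR), with a 95% interval from -17.1% to -6.72%. Without palmitate, Hadh had 150 and 155 CPM in untreated cells and 145 and 148 with A66 (log2 fold change -0.052, adjusted p = 0.672, edgeR), and the test of the difference between these effects did not pass (-0.13, adjusted p = 0.597, edgeR). Because Hadh is a gene of the spiral proper that passed, the 200 bases before its RefSeq start are shown, on chromosome 3 of GRCm38.p6, minus strand, chr3:131272102-131272301.
Hadh: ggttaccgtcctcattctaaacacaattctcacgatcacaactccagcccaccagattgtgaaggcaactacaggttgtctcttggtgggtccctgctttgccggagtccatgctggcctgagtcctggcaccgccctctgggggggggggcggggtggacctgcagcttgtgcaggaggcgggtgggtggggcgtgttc

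Crat was the second gene that passed, at 276 and 302 CPM in the palmitate libraries and 248 and 256 once A66 was added. The groups did not overlap and the fall was 0.20 on the log2 scale (standard error 0.045, adjusted p = 0.0147, edgeR). Its log2 fold changes with A66 were thus -0.18 without palmitate and -0.20 with it, and the test of their difference gave -0.017 (interval from -0.15 to 0.11, adjusted p = 0.979, edgeR). Exons of Crat overlap those of Dolpp1, read from the other strand. Without either library of palmitate plus A66 neither Crat nor Hadh passed (adjusted p between 0.0553 and 0.155, edgeR). Crat also did not pass without palmitate replicate 2 (-0.13, adjusted p = 0.266, edgeR), nor Hadh without palmitate replicate 1 (-0.17, adjusted p = 0.0716, edgeR).

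In palmitate-treated cells Abcd2 did not pass. It had 81.6 and 87.3 CPM without A66 and 77.2 and 88.1 with it, which overlapped (log2 fold change -0.030, adjusted p = 0.869, edgeR). The difference between its A66 effects with and without palmitate was -0.28 on the log2 scale (standard error 0.079, unadjusted p = 0.00201), the lowest p of the 33 genes, and it did not pass after adjustment (adjusted p = 0.362, edgeR). Without the filter on low counts it passed (adjusted p = 0.0139, edgeR), in a fit that called 0.394% of all genes. Over the 33 genes 0 passed this test of interaction, beside 0.00686% of all genes. An unadjusted p under 0.05 was found for 4 of the 33, beside 1155 of the 14587 genes tested. DESeq2 called 0 of the 17 members for which it gave an adjusted p. Acot1 had 20 and 27 raw counts without A66 and 58 and 42 with it, which did not overlap (log2 fold change 1.26, standard error 0.40, adjusted p = 0.0994, edgeR), and it passed without the filter on low counts (adjusted p = 0.0110, edgeR). Acot2 had 48.1 and 53.4 CPM against 56.5 and 55.4 (log2 fold change 0.14, adjusted p = 0.213, edgeR).

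**Figure D4:**
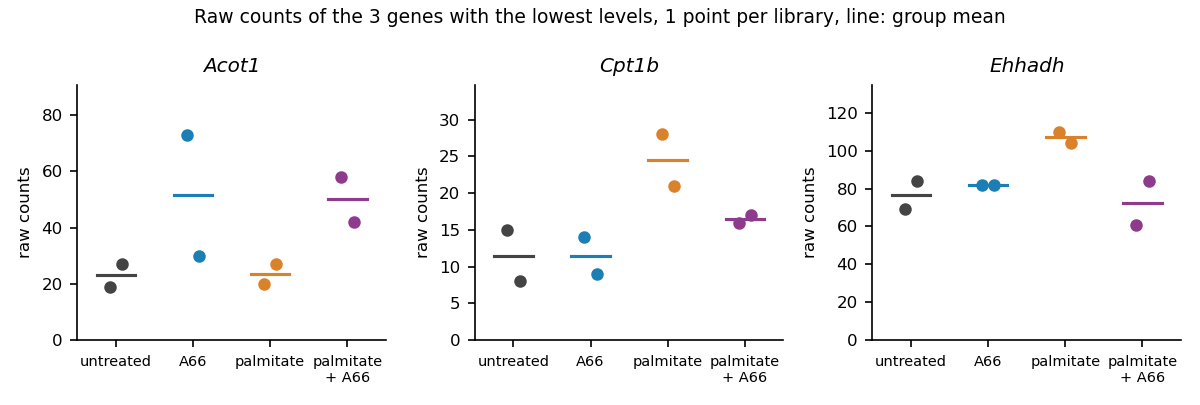
Raw counts of Acot1, Cpt1b and Ehhadh (axes from 0), 1 point per library with the mean of 2 libraries as a line. Acot1 reaches 73 counts in 1 A66 library and at least 30 in all 4 libraries with A66, Cpt1b stays at 28 counts or below, and none of the 3 genes passed in any comparison with the filter on low counts.

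Beyond the genes that passed, most members lay slightly below 0 in this comparison. Of the 33, 27 (81.8%) had a negative log2 fold change, beside 50.3% of all genes, and the median was -0.059, beside -0.00079. Examples on either side are Hadhb, at 249 and 243 CPM without A66 and 225 and 234 with it, and Acadl, at 170 and 173 against 172 and 174. The 33 genes come from the same libraries and are not independent, so no test is given for this count. In the same comparison 3 of the 12 adipocyte markers were lower and none was higher (Retn -0.32, Slc2a4 -0.23 and Cidec -0.23), with a median of -0.11 over the 12 (edgeR, whereas DESeq2 called 2). Their sum lay between 17586 and 18800 CPM with palmitate and between 17016 and 18152 CPM once A66 was added, which overlapped. The part of these markers in the shift of the members was not tested.

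The last comparison set palmitate plus A66 against A66, and shares libraries with both comparisons above. Crat passed (1 of 33, 3.03%, against 2.73% of all genes tested, a share near that background), falling by 0.16 on the log2 scale from 289 and 276 CPM to 248 and 256 (adjusted p = 0.0488, edgeR). This share holds for the fit on all 8 libraries. A fit on only the libraries compared called more members, as given in the last section, and 4.87% of all genes. In the fit on all 8 libraries 14 of the 33, Crat among them, had an unadjusted p under 0.05, beside 2123 of 14587 genes. Among genes with a mean of at least 10 CPM it was 14 of 30 members, beside 1698 of 8956 genes. The other 13 members did not pass. Among these were Abcd2, from 98.8 and 90.5 CPM to 77.2 and 88.1 (-0.20, adjusted p = 0.0616), Etfb (-0.16, adjusted p = 0.0623), Acads (-0.15, adjusted p = 0.0737) and Acadvl (-0.16, adjusted p = 0.0850), all in edgeR. Acot2 was the only one of the 13 above 0, from 49.6 and 50.3 CPM to 56.5 and 55.4 (0.16, adjusted p = 0.130, edgeR). The count of members that passed depended on the test, with 6 in DESeq2 (against 4.23% of all genes to which it gave an adjusted p), 7 in edgeR without the filter on low counts (2.87%) and 0 in edgeR without A66 replicate 1 or without palmitate plus A66 replicate 1, fits that called 0.715% and 0.934% of all genes. The call of Crat was lost without any single library of the 2 groups (adjusted p between 0.0923 and 0.462, edgeR).

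Adipocyte markers moved with the comparison of palmitate plus A66 against A66 as well. Of the 12 markers 9 were lower with palmitate plus A66 than with A66 and none was higher, with a median log2 fold change of -0.25 (edgeR, whereas DESeq2 called 6), and their sum went from between 19548 and 20367 CPM to between 17016 and 18152 CPM. With palmitate alone 2 of the 12 were lower in edgeR, Lpl and Pnpla2, and the sum lay between 17586 and 18800 CPM, against 19991 to 20055 in untreated cells. DESeq2 called 1 of the 12 with palmitate. Of the 5 macrophage markers Cd68 alone made up most of a small sum, at 2.57 and 3.42 CPM without treatment and 2.65 and 3.28 under A66. Palmitate libraries had 4.20 and 3.86 CPM of it, and those given both agents 5.40 and 5.74. It rose with palmitate plus A66 against A66 (0.91, adjusted p = 0.00140, edgeR) and did not pass with palmitate alone (0.42, adjusted p = 0.277, edgeR), whereas Csf1r stayed at or below 0.28 CPM in every library and the other 3 at or below the floor. Of the muscle markers Acta1 was detected in every library, at 0.80 and 0.85 CPM without treatment, 1.08 and 1.17 under A66, 1.26 and 1.10 under palmitate and 1.98 and 2.13 under both agents, and passed in no comparison (adjusted p = 0.0565 against A66, edgeR). Of 9 preadipocyte and fibroblast markers tested, 3 passed with palmitate in edgeR. These were Col1a1, Fbn1 and Postn, which rose by 0.25, 0.23 and 0.32 on the log2 scale, whereas the median over the 9 was 0.042. When A66 was added to palmitate Col1a1 and Postn fell, and the median was -0.12 (edgeR, whereas DESeq2 called 4). The part of these markers in the values of the oxidation genes was not tested.

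The organelles were then set side by side. Summed per kb, the 19 mitochondrial genes reached 1471 and 1544 CPM per kb in untreated cells and the 9 peroxisomal genes 389 and 403. The ratio of the sums lay between 3.75 and 3.87 in all 8 libraries, and the groups overlapped except that palmitate plus A66 held its lowest values, 3.75 and 3.75. With A66 the median log2 fold change was -0.010 for mitochondrial and 0.049 for peroxisomal genes, and with palmitate -0.016 and 0.0018. When A66 was added to palmitate the medians were -0.080 and -0.016, with 17 of 19 mitochondrial and 6 of 9 peroxisomal genes below 0. With palmitate plus A66 against A66 they were -0.092 and -0.066. The difference between the organelles was not tested. The peroxisomal median for A66 added to palmitate changed sign with the library left out, from -0.050 to 0.038.

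**Figure D5:**
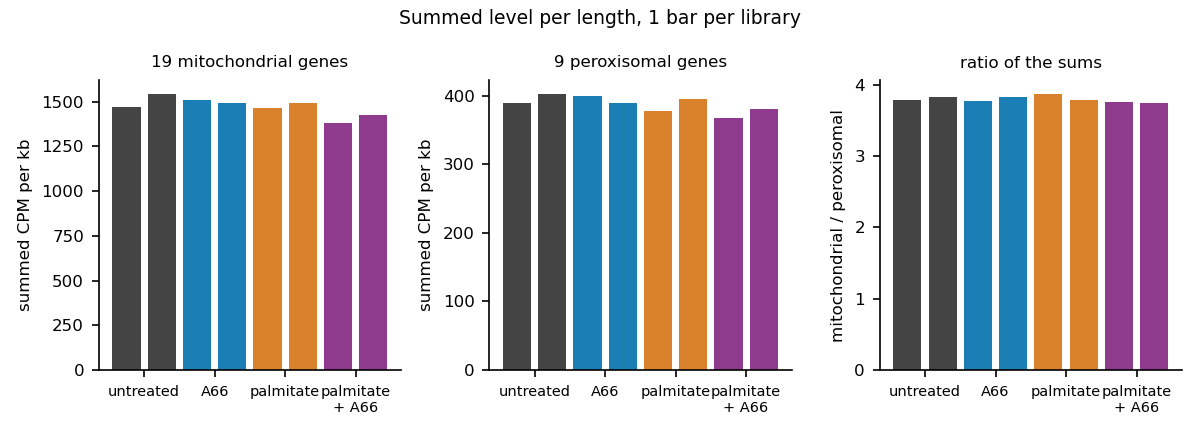
Summed level of the 19 mitochondrial and the 9 peroxisomal genes in CPM per kb, and the ratio of these sums, 1 bar per library, axes from 0. The mitochondrial sum is lowest in the libraries with palmitate plus A66, and the ratio lies between 3.75 and 3.87 throughout.

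Members found in both organelles other than Crat, namely Eci2 and Ech1 (isomerases for double bonds) and Acad11, had intervals within 1.5-fold in all 4 comparisons. So did the reductases of unsaturated chains, Decr1 in mitochondria and Decr2 in peroxisomes, and Eci1, the mitochondrial enoyl-CoA isomerase. Decr1 had between 142 and 160 CPM in the 8 libraries and Decr2 between 47.8 and 51.5. In the peroxisomal spiral Hsd17b4, the main bifunctional enzyme, had between 122 and 136 CPM and the thiolase Acaa1a between 86.9 and 99.2, of whose windows 21.6% recur in Acaa1b. Ehhadh, which acts at the same steps as Hsd17b4, was far lower, between 1.26 and 1.94 CPM. Acaa2, a mitochondrial thiolase, had between 72.5 and 78.8 CPM.

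Windows around the gene starts, reaching past each start, were searched for the element that PPAR and RXR bind together. RefSeq windows of 300 bases around the start were searched for 27 of the 33 genes (28 windows). No window was at hand for Crat, Abcd2, Cpt1b and Decr1, and Acaa2 and Hsd17b4 were left out of the search. The counts of member windows below therefore hold only for the genes searched. The element, a direct repeat written AGGTCANAGGTCA, was searched on both strands with up to 2 mismatches, which includes overlaps with its own hexamer AGGTCA. It occurred in 3 of the 28 windows, and in 3.86% of the 32851 windows of all genes. The matches are printed because the members are often described as PPAR targets, with bases equal to the repeat in capitals, for Echs1 on the minus strand at chr7:140116492-140116504, for Etfa on the plus strand at chr9:55512308-55512320 and for Slc25a20 on the plus strand at chr9:108662142-108662154, all on GRCm38.p6. The Slc25a20 match lies after the start, and those of Echs1 and Etfa before it.
Echs1: AGGTCAcgGGTCc
Etfa: AGGgCAaAGGTaA
Slc25a20: AGGTgAaAGGTCg
The hexamer alone occurred in 5 of the 28 windows and in 16.3% of all windows.

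Related gene lists were measured beside the pathway. Of 13 PPAR-responsive genes outside it, 11 were tested, and with palmitate Acsl1 passed in edgeR, whereas DESeq2 called 2. Acsl1, which activates long-chain fatty acids to acyl-CoA, had 1746 and 1665 CPM in untreated cells and 1384 and 1483 with palmitate (-0.25, adjusted p = 0.00551, edgeR). It was also lower with A66 alone, at 1489 and 1405 CPM (-0.23, adjusted p = 0.00158, edgeR). With palmitate plus A66 it had 1036 and 1098 CPM, the lowest of the 4 groups, and it passed against palmitate (-0.43) and against A66 (-0.44). Plin2, a lipid droplet coat protein known to rise with fatty acids, had 209 and 226 CPM in untreated cells and 242 and 248 with palmitate (0.17, adjusted p = 0.0572, edgeR). Its 264 and 275 CPM with palmitate plus A66 lay above its 233 and 234 with A66 (0.21, adjusted p = 0.00737, edgeR).

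Of 9 regulators, among them the PPAR receptors and PGC-1 coactivators, 0 passed with palmitate (4 had an unadjusted p under 0.05 in edgeR, and DESeq2 called 0), and those with the smallest p were Nrip1, a corepressor (-0.15, adjusted p = 0.126), and Rxra, the partner receptor of PPARs (-0.14, adjusted p = 0.159). With palmitate plus A66 against A66, Rxra (-0.27), Nrip1 (-0.21) and the coactivator Ppargc1b (-0.41) passed, all lower. Of 3 genes that set malonyl-CoA, 0 passed with palmitate (0 had an unadjusted p under 0.05 in edgeR, and DESeq2 called 0), Acacb, a carboxylase, and Mlycd, the decarboxylase, each having -0.067. Of 22 further oxidation enzymes tested 0 passed with palmitate (0 had an unadjusted p under 0.05 in edgeR, and DESeq2 called 0), with the smallest p for Acad9 (-0.094) and Acad10 (-0.098). When A66 was added to palmitate 1 of these 22 passed, in a comparison that called 2.81% of all genes tested. It was Hsd17b10, a hydroxyacyl-CoA dehydrogenase of mitochondria, which fell by 0.21 (adjusted p = 0.00908, edgeR). Of 16 peroxins, which build peroxisomes, 0 passed with palmitate (1 had an unadjusted p under 0.05 in edgeR, and DESeq2 called 0), with the smallest p for Pex3 (-0.14, adjusted p = 0.211) and Pex6 (-0.12, adjusted p = 0.445). Of the FOXO genes Bcl6 fell with palmitate (-0.21, adjusted p = 0.0284, edgeR), and Insr had -0.095 (adjusted p = 0.316).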

How the data were processed

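Poly(A) RNA of 8 cultures was sequenced by the study in pairs of reads. Alignment by the authors was to GRCm38 (TopHat 2.0.11), and the deposited values are raw HTSeq counts per gene. The annotation release and strand setting of the counting are not given in the sources used here. Beside the counts the authors deposited 6 columns of a DESeq2 comparison, holding a mean of normalized counts and a Wald statistic (both entered as scores), fold changes and their errors on the log2 scale, and p-values before and after adjustment. These 6 columns were not used.

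Counts were tested in R 4.3.3 with edgeR 4.0.16 (TMM, filterByExpr with a minimum count of 10, quasi-likelihood tests, Benjamini-Hochberg adjustment over all genes tested, threshold 0.05). A66 was compared with untreated cells in their 4 libraries (14158 genes), and the other comparisons were fitted on all 8 libraries (14587 genes). Comparisons share control libraries. P-values measure the spread between cultures of one line. Symbols matched 42548 of the 43629 genes through GENCODE M21, and levels per kb use the longest principal transcript. Genes are named by a rule that gives every library for the 10 entry genes and for members that passed. From each other list the rule gives those with the smallest p under palmitate. Further list genes are named outside this rule because they passed in a comparison, namely Hsd17b10, Klf15, Ppargc1b, Retn, Slc2a4, Cidec and Fbn1. The members and lists were chosen with earlier results of these data known. The scripts were tested on simulated data. DESeq2 1.42.0, other scalings and filters, a correction for transcript length, the replicate number as a block and leaving out each library were alternatives. No molecular identifiers are described, so the floor covers counting error only.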

Additional observations from a re-analysis of the deposited data

How the results depend on the processing

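With 2 libraries per group, the calls above depend on single libraries, and a group left with 1 library is assumed to vary like the others. The share of all genes called in the same fit stands in parentheses. Leaving out each library in turn, the number of members called in edgeR lay between 0 and 2 for A66 (0.673% to 4.38%), 0 and 1 for palmitate (0.474% to 1.64%), 0 and 2 for A66 added to palmitate (0.982% to 3.30%), and 0 and 4 for palmitate plus A66 against A66 (0.715% to 3.35%). Without the filter on low counts the numbers were 2 for palmitate, Acadm and Crat (1.71%), 4 for A66 added to palmitate (2.82%), 7 for palmitate plus A66 against A66 (2.87%) and 1 for the interaction, Abcd2 with an adjusted p of 0.0139 (0.394%). DESeq2 called 3 members for A66 added to palmitate (3.46%) and 6 for palmitate plus A66 against A66 (4.23%). In that last comparison edgeR called 6 with scaling by library size only (3.06%), 2 with the length correction (3.11%), 8 with only the libraries compared in the fit (4.87%), 3 with the replicate block (3.00%) and 5 with the replicate block and length correction (3.27%). Fits chosen after seeing the data, in the 4 libraries compared, gave 8 with the replicate block (5.37%) and 12 with the numbers crossed (9.69%). The same replicate numbers in different groups correlated between -0.15 and 0.15 over 8956 genes, so the numbers were not taken to pair the cultures. The replicate block moved the number of members called in no other comparison.

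The log2 fold change of Abcd3 with palmitate, 0.0018, was -0.0084 with scaling by library size only, -0.00095 with the length correction and -0.0012 with the replicate block and length correction. With single libraries left out, values that crossed 0 lay between -0.0034 and 0.0071 for Abcd3, -0.067 and 0.033 for Cpt2, -0.043 and 0.13 for Crot, -0.45 and 0.082 for Acot1 and -0.11 and 0.035 for Acot2, all with palmitate, and between -0.13 and 0.062 for Abcd2 with A66 added to palmitate. The cause of these shifts was not tested. The interaction needs all 4 groups, so it was not fitted with only some of them. Depth limits Cpt1b, Acot1 and Ehhadh.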
